A study of Mus musculus with 2 samples.

Results

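A set of 10 genes of one signalling output was followed in embryonic mouse heart ventricles: the coactivator genes Yap1 and Wwtr1, which encode YAP and TAZ; Tead1, Tead2, Tead3 and Tead4, which encode the TEAD transcription factors; and the target genes Ctgf, Cyr61, Ankrd1 and Amotl2. They were chosen by name as members of the pathway, with no threshold on their values, though earlier results of these data were known. All 10 had a row among the 23276 genes of the expression table. Ventricles of wild-type (WT) embryos and of embryos without either copy of the long non-coding RNA gene Fendrr (KO) were compared at stage E12.5 of gestation. Both genotypes were on a C57BL/6 x 129SV background. Fendrr had been removed by homologous recombination in embryonic stem cells. All embryos, controls included, were made from stem cells by tetraploid complementation, in which a tetraploid host mainly supplies extraembryonic tissue. How many stem cell clones were used was not given in the sources used here. RNA of 4 pooled ventricles per genotype gave 1 ribosomal RNA-depleted, strand-specific library each.

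With 1 library per genotype there was no replicate check and no test, and every difference below is between 2 libraries and not a measured effect of the genotype. Each library had its own sequencing run, with bases called differently in each, so run and genotype cannot be told apart. Levels are given as FPKM, which corrects fragment numbers for the length of the transcript and for library size, so they can be compared between genes. Absolute depth is unknown. Low values, which step in whole reads, gave a depth 1.26 times as large for the KO library as for the WT library. The labels could not be checked on the targeted gene, since the row for 1110050K14Rik, the older name of Fendrr, held 0 in WT and in KO.

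YAP and TAZ carry no DNA-binding domain. The Hippo kinases MST and LATS phosphorylate them and keep them in the cytoplasm, and when the kinases are inactive they enter the nucleus and bind TEAD factors, which recognise the letters GGAATG. In the heart this output drives growth of the ventricular wall before birth: mouse embryos without Tead1, or without Yap1 in cardiomyocytes, have thin ventricular walls. Activity is set largely by where the coactivator proteins are and how they are phosphorylated, which RNA levels do not measure.

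The short stretches around the TEAD letters upstream of the members are shown first, because TEAD factors recognise these letters. They come from the RefSeq promoter table, build GRCm38.p6, matched by symbol (Cyr61 is listed there as Ccn1). This build differs from mm9, on which the expression values were made, and no position was converted. Windows ran from 250 bases before a start to 50 after it and were given for 7 of the 10 members. Ctgf, Tead1 and Tead4 had none. Each line is 30 bases of the gene's own strand, 5′ to 3′, with the TEAD letters in capitals, as GGAATG or, on the other strand, CATTCC.
Ankrd1, distal site: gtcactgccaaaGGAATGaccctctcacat
Ankrd1, proximal site: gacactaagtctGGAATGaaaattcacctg
Cyr61: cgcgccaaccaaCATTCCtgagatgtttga
Amotl2: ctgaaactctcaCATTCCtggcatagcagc
Yap1: cgggagtctgcaGGAATGtagcgacgcgca
Wwtr1: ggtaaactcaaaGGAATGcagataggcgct
Tead3, first start: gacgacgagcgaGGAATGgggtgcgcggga

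The Ankrd1 sites lie on the minus strand at chr19:36120037-36120066 and chr19:36119950-36119979, with their capitals at bases -210 to -205 and -123 to -118 (the base just before the start is -1). The Cyr61 site is on the minus strand at chr3:145650071-145650100, with its capitals at -103 to -98. The Amotl2 site is on the plus strand at chr9:102717727-102717756, at -65 to -60. All 3 target genes with a window thus held the letters. Since they were chosen as target genes of YAP, TAZ and TEAD factors, that count is no separate result. In GENCODE vM21 (GRCm38), all 250 bases before this Ankrd1 start, and 136 of those before the Amotl2 start, lie in annotated exons of the same gene, while none do for Cyr61. The Yap1 site is on the minus strand at chr9:8004720-8004749 and the Wwtr1 site on the minus strand at chr3:57576029-57576058. The Tead3 site is on the minus strand at chr17:28350970-28350999, and a second Tead3 start had further matches. The window of Tead2, the most abundant factor, held no match, which says only that these letters are not in it.

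The letters occurred, on either strand, in 14.7% of 32851 promoter windows of the same length. Counted by gene, they were found for 6 of 7 members and for 4481 of all 27025 genes with a window (16.6%). In the other pathway lists described below, the counts were 3 of 4 (TEAD cofactors), 4 of 8 (SRF and MRTF) and 3 of 9 (Hippo kinase core). They were 4 of 12 for other signature genes, 3 of 12 for upstream regulators, 1 of 2 for Ankrd1 relatives and 0 of 1 for CCN relatives. The members had 10 windows for 7 genes, and a share above 16.6% was not particular to them. No member window held the AP-1 letters TGANTCA, which were in 7.81% of windows, or a CArG box, the site of serum response factor, which was in 1.63%. No TEAD match of a member therefore overlapped either motif. A match is a description of the sequence and not evidence of binding in these ventricles.

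The 250 bases before the Cyr61 start, on the minus strand at chr3:145649986-145650235 (GRCm38.p6), are shown whole because this window contained no annotated exon of the GENCODE vM21 basic set.
Cyr61, upstream: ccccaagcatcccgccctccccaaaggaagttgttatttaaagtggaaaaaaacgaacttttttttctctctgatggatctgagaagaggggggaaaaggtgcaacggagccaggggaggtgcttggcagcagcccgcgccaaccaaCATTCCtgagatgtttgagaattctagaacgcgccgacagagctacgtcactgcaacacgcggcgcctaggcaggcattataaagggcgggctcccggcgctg

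The comparison of KO with WT asks whether the ventricle without Fendrr differs in the RNA of this pathway. No member was 2-fold apart in either direction. Ratios were taken as log2((KO + 1)/(WT + 1)) of FPKM for the 11349 genes whose mean reached 1 FPKM, a scale that understates differences of low genes. Of the 10 members, 9 passed this minimum and Tead4, at a mean of 0.967 FPKM, did not. Among all 11349 genes, 0.467% were 2-fold or more above WT in the KO library and 0.388% were 2-fold or more below, so that counts of 0 among 9 members are near the background. At 1.5-fold the background was 1.54% higher and 3.6% lower, and the count among the 9 members was also 0 on this scale. Without the added 1, the low genes Tead3 and Tead4 were at 0.628 and 0.656 times their WT FPKM, both more than 1.5-fold lower.

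The libraries differed slightly in overall scale. The median log2 ratio of all 11349 genes was -0.11, and 67% of them had a ratio below 0, so a member's ratio is read against this median. By definition 50% of genes lie above it. Of the 9 members, 4 lay above the median and 5 below, and the members' own median was -0.12. All 9 lay within the central 95% of genes, which ran from -0.64 to 0.49.

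**Figure D1:**
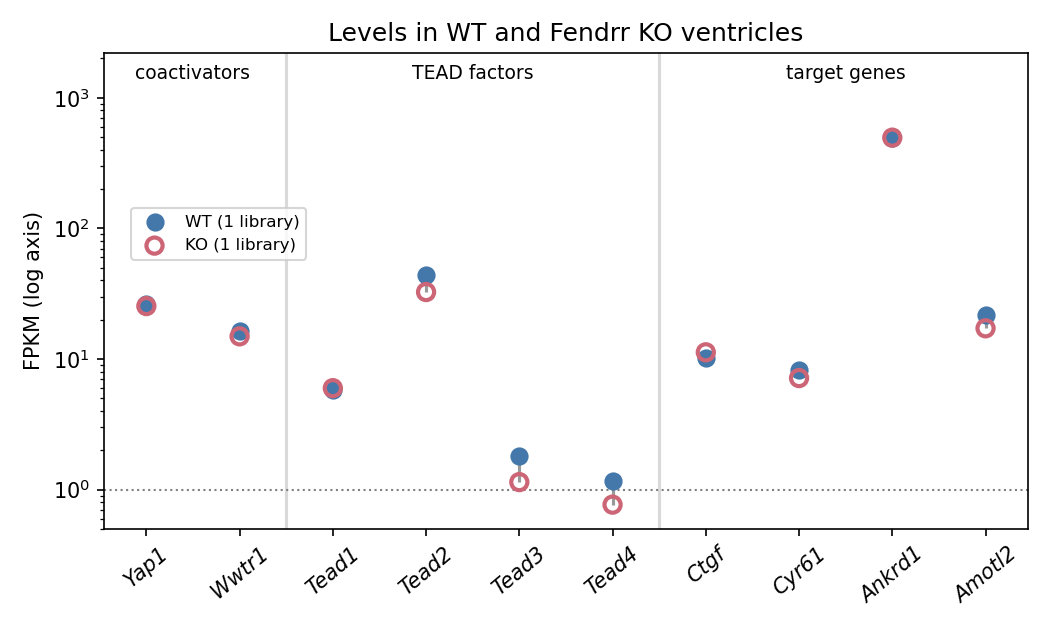
Level of each member in the WT library (filled blue) and the KO library (open red), in FPKM on a log axis, 1 library per genotype and no error bars. Ankrd1 is far above the rest at 495 FPKM in both libraries, and Tead3 and Tead4 lie near the dotted line at 1 FPKM.

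The members had the same order of level in both libraries: Ankrd1, Tead2, Yap1, Amotl2, Wwtr1, Ctgf, Cyr61, Tead1, Tead3 and Tead4, from highest to lowest. Without replicates, whether neighbours in this order differ beyond the spread between samples could not be determined.

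Both coactivator genes were well expressed and close between the libraries. Yap1 was at 26.3 (WT) and 25.4 (KO) FPKM, a log2 ratio of -0.049. Wwtr1 was at 16.3 (WT) and 14.9 (KO) FPKM, a log2 ratio of -0.12. These levels place both above the median expressed gene, which was at 8.32 (WT) and 7.62 (KO) FPKM. Yap1 exceeded Wwtr1 by 1.62 times in WT and 1.70 times in KO, a quantity within each library that a common scaling factor leaves as it is. Of all expressed genes, 80.4% lay at least as far from the overall median as Yap1, and 96.6% as far as Wwtr1.

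The 4 factor genes did not have a common ratio. Tead2, a factor of early embryonic tissues, was the most abundant, at 43.7 (WT) and 32.5 (KO) FPKM. Its log2 ratio of -0.41 was the lowest of the 9 members, 0.744 times the WT level in FPKM, and lay at percentile 10.8 of all expressed genes. Counting both directions, 23.0% of these genes lay at least as far from the median as Tead2. Tead1, the factor best known from cardiac muscle, was at 5.74 (WT) and 5.98 (KO) FPKM, a log2 ratio of 0.050 at percentile 74.0. The libraries therefore differed more for the abundant Tead2 than for Tead1.

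Tead3 and Tead4 were low. Tead3 was at 1.82 (WT) and 1.14 (KO) FPKM, a log2 ratio of -0.40 at percentile 12.4. That ratio depends on the pseudocount, being -0.63 with 0.1 and -0.15 with 5. With a pseudocount of 1, 25.9% of expressed genes lay at least as far from the median as Tead3. Tead4, which in the early embryo acts in the trophectoderm, was at 1.17 (WT) and 0.766 (KO) FPKM. How many reads stand behind such low values is unknown. Among genes with a mean from 1 to below 5 FPKM the central 95% of log2 ratios ran from -0.64 to 0.57, which contains the ratio of Tead3.

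Added together, the Tead genes stood at 52.4 (WT) and 40.4 (KO) FPKM, 0.771 times the WT sum, and most of the gap was in Tead2. Tead2 made up 83.4% of the sum in WT and 80.5% in KO. The share of Tead1 was 11.0% in WT and 14.8% in KO. Tead3 gave 3.47% and 2.82%, and Tead4 gave 2.23% and 1.90%. The ratio of Tead2 to Tead1 was 7.61 in WT and 5.44 in KO. The coactivators together were at 42.6 (WT) and 40.3 (KO) FPKM. The summed factors were 1.23 times the summed coactivators in WT and 1.00 times in KO, a difference that lies in the factors more than in the coactivators.

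**Figure D2:**
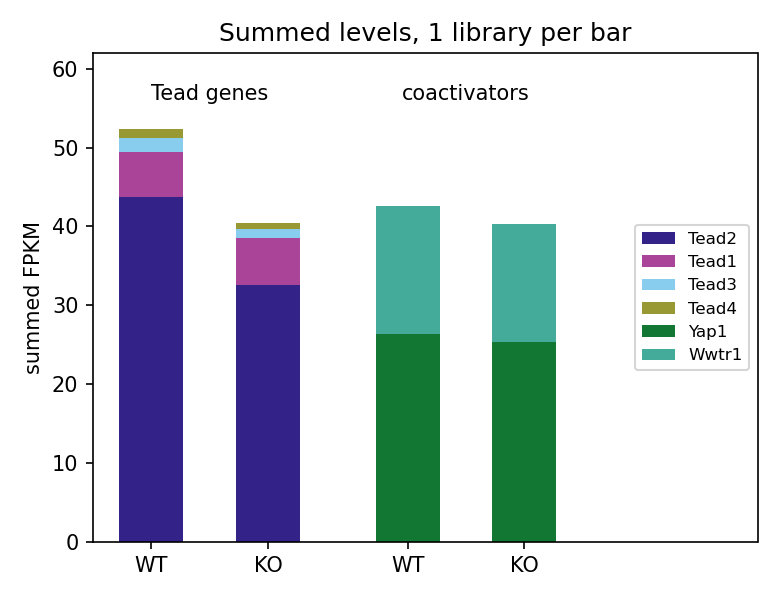
Summed FPKM of the 4 Tead genes (left pair of bars) and of Yap1 and Wwtr1 (right pair) in the WT and KO library, 1 library per bar, with no error. Tead2 (dark blue) is the largest block of the Tead sum, at 43.7 (WT) and 32.5 (KO) FPKM, while the coactivator bars are nearly level at 42.6 and 40.3 FPKM.

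The 4 target genes lay on both sides of the median, 2 above and 2 below. Ankrd1, which encodes a cardiac ankyrin repeat protein of the nucleus and the sarcomere, ranked at place 107 of all genes by level in WT and 97 in KO. It was at 495 FPKM in both libraries, with a log2 ratio of -0.00032. As deposited, its values were the closest pair among the members. Read against the median of all genes, Ankrd1 lay 0.11 above it and Wwtr1 was the nearest member, at -0.011. Tnnt2, the cardiac troponin T gene, was at 1524 (WT) and 2174 (KO) FPKM, so the ratio of Ankrd1 to Tnnt2 was 0.325 in WT and 0.228 in KO. Against the troponin I gene Tnni3 (753 and 443 FPKM) the ratio went the other way, from 0.657 to 1.12, and against the light chain gene Myl2 it was 0.0543 and 0.0522. Tnnt2 (percentile 97.8) and Tnni3 (percentile 1.07) lay outside the central 95% of genes, in opposite directions. Among genes with a mean of 100 FPKM or more, the central 95% ran from -0.763 to 0.5155. Tnnt2, with a log2 ratio of 0.512, lay inside that range, and Tnni3, at -0.765, just outside it.

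Ctgf and Cyr61 encode secreted matricellular proteins of the CCN family and are the most used readouts of YAP activity. Ctgf was at 10.1 (WT) and 11.2 (KO) FPKM, a log2 ratio of 0.13, the highest of the members, at percentile 83.1. Counting both directions, 33.0% of expressed genes lay at least as far from the median. Cyr61 was at 8.25 (WT) and 7.14 (KO) FPKM, a log2 ratio of -0.19 at percentile 37.5. The readouts thus lay on opposite sides of the median, and the ratio of Ctgf to Cyr61 was 1.23 in WT and 1.58 in KO. In GENCODE vM21, 22.9% of the exon bases of Ctgf are also covered by an antisense gene. Whether counting used the strand was not given in the sources used here, so Ctgf reads cannot be separated from reads of that gene.

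Amotl2 encodes an angiomotin-like protein that binds YAP at cell junctions, and as a YAP target it is part of a negative feedback loop. It was at 21.8 (WT) and 17.2 (KO) FPKM, a log2 ratio of -0.33 at percentile 18.0. In either direction, 37.0% of expressed genes lay at least as far from the median as Amotl2. Its relatives Amotl1 (23.6 (WT) and 21.1 (KO) FPKM) and Amot (4.43 and 4.49 FPKM) had closer values. Amotl2 was 0.927 times Amotl1 in WT and 0.814 times in KO, and 4.93 times Amot in WT and 3.82 times in KO.

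**Figure D3:**
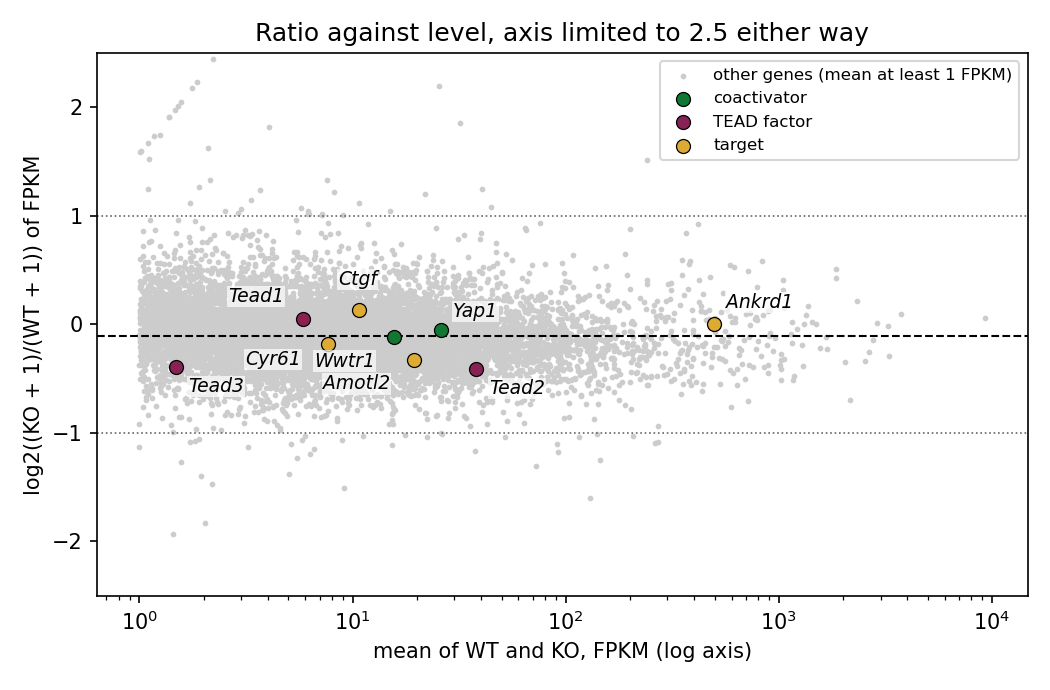
Log2 ratio of KO over WT (vertical axis, FPKM + 1) against mean FPKM on a log axis for 11349 genes (grey), with the 9 members above the minimum in colour by role; 18 genes beyond 2.5 on the vertical axis are not drawn. The dashed line is the median of all genes at -0.11 and the dotted lines mark 2-fold; the members lie between -0.41 (Tead2) and 0.13 (Ctgf), inside the grey cloud.

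The direction of a small ratio depended on how the libraries were scaled. Ctgf, Tead1, Yap1 and Ankrd1 lay above the median of all genes under each of 10 settings, counting the values as deposited and 9 alternatives. Tead2, Cyr61 and Amotl2 lay below it under each of the 10, and Tead3 under each of the 9 in which it was included. Wwtr1 lay above it under 4 and below it under 6. Against 0 rather than the median, Yap1 and Ankrd1 were negative under 5 settings and positive under 5. Wwtr1 was negative under 7 and positive under 3. Tead2 relative to the median ranged from -0.36 to -0.27, and Ctgf from 0.17 to 0.27. Median centring leaves each position against the median as it is, and a common scaling factor shifts members and median nearly together. Agreement between settings on the side of the median was thus largely fixed in advance. These settings reuse the same 2 libraries and do not stand in for replicates.

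**Figure D4:**
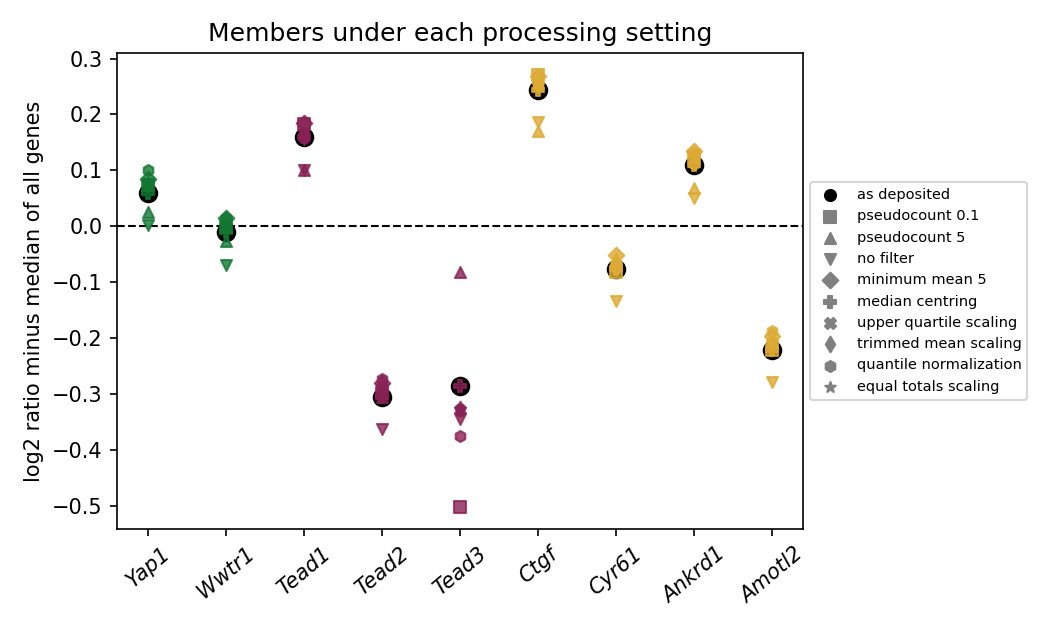
Log2 ratio of each member minus the median of all genes (dashed line at 0) as deposited (black circles) and under each of 9 alternatives (coloured symbols); Tead4, under the minimum, is not drawn. Tead2 stays between -0.36 and -0.27 and Ctgf between 0.17 and 0.27, Tead3 is the most spread, and Wwtr1 straddles 0.

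The kinases that restrain YAP and TAZ are the Hippo kinase core. All 11 listed genes of this core passed the minimum, 8 above and 3 below the median, with a list median of -0.048 against -0.11 for all genes and none 2-fold apart. Stk3, which encodes the kinase MST2, was at 24.1 (WT) and 26.2 (KO) FPKM, and Map4k4, a kinase that also acts on LATS, at 48.7 and 47.0 FPKM. Lats1, a kinase that phosphorylates YAP, was at 3.13 (WT) and 3.89 (KO) FPKM. The kinase gene Taok3 was furthest from the median, at 1.36 (WT) and 2.37 (KO) FPKM, a log2 ratio of 0.51 at percentile 97.8. This was just outside the central 95% of all genes. It was inside the central 95% of genes with a mean from 1 to below 5 FPKM, which reached 0.57.

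Of 17 upstream and junction regulators, 16 passed the minimum, 9 above and 7 below the median, with none 2-fold apart. The list median was -0.034. Fat4, an atypical cadherin, was at 3.85 (WT) and 4.93 (KO) FPKM. Limd1, which encodes a LIM protein that binds LATS, was at 12.9 and 10.3 FPKM. Among the TEAD cofactors of the Vgll family only Vgll4, which competes with YAP for TEAD, passed the minimum, at 13.2 (WT) and 10.2 (KO) FPKM.

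The other genes of a widely used YAP/TAZ target signature numbered 18, of which 14 passed the minimum, 11 above and 3 below the median. Their median log2 ratio was -0.035 against -0.11 for all genes, and no gene was 2-fold apart. Without the filter, with 17 genes above 0, their median lay just below that of all genes. Igfbp3, an IGF-binding protein gene, was at 16.8 (WT) and 22.5 (KO) FPKM and Asap1 at 4.65 and 5.89 FPKM. Ccdc80, the most abundant of them, was at 44.3 and 45.1 FPKM. Foxf2 was listed at 0 in both libraries.

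Serum response factor, its MRTF coactivators and their targets share several genes with the YAP output. Of 10 such genes, 1 lay above the median and 9 below, with a list median of -0.18 and none 2-fold apart. Myocd, the myocardin gene, was at 10.8 (WT) and 6.36 (KO) FPKM, a log2 ratio of -0.68 outside the central 95% of genes. Fhl2 was at 68.6 and 50.2 FPKM. The abundant Acta2 was at 467 (WT) and 409 (KO) FPKM. The list median was below that of all genes under all 10 settings. Acta2, Tagln and Cnn1 of this list are also smooth muscle markers, a list that summed to 736 (WT) and 654 (KO) FPKM, with 1 of 3 genes above the median and 2 below. The remaining smooth muscle marker, Myh11, was under the minimum and not lower in KO, at 0.301 (WT) and 0.332 (KO) FPKM. The part of smooth muscle cells in these values was not tested.

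TEAD factors also bind M-CAT elements of muscle genes, which hold the same letters. Of 6 muscle genes listed for such elements, 5 lay above the median and 1 (Nppb, 147 (WT) and 116 (KO) FPKM) below it. The list median was 0.11. Besides Tnnt2, the most abundant were Actc1 (3605 and 3857 FPKM) and Myh7 (2146 and 2486 FPKM). The letters were in the promoter windows of 5 of these 6 genes, against 16.6% of all genes with a window. Since these genes were listed for such elements, that count follows from the choice and is no separate result. Of these genes, 4 (Tnnt2, Myh7, Myh6 and Actc1) are also in the list of cardiomyocyte markers used below. Among listed family relatives of the CCN targets, Wisp1 was at 13.2 (WT) and 12.6 (KO) FPKM. Ankrd23, a relative of Ankrd1, was at 1.37 and 0.903 FPKM, and Ankrd2 was listed at 0 in both libraries.

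**Figure D5:**
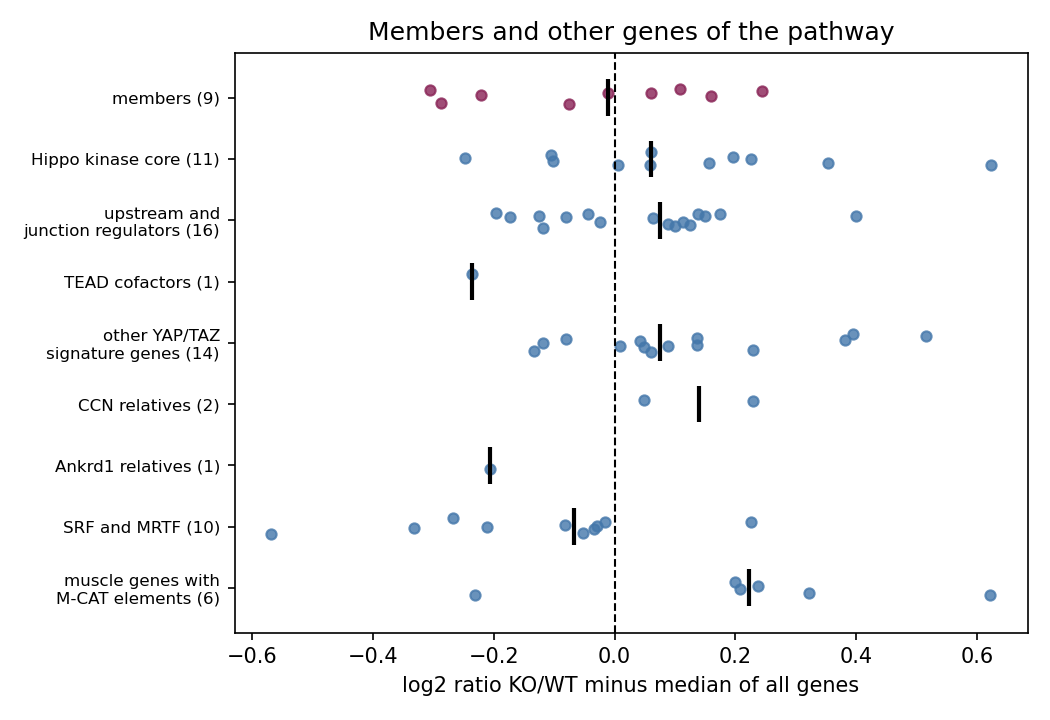
Log2 ratio minus the median of all genes for each gene reaching a mean of 1 FPKM in the member list and in 8 other lists of the pathway (number of genes in brackets); black bars are list medians and the dashed line is the median of all genes. The SRF and MRTF genes lie mostly to the left (1 of 10 above) and the muscle genes with M-CAT elements mostly to the right (5 of 6 above).

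The cell make-up of the pooled ventricles bears on these values, and in such bulk RNA fewer cells of a type cannot be told apart from less RNA per cell. All 8 cardiomyocyte markers passed the minimum, as the labelled tissue should, and their summed level was 18705 (WT) and 19827 (KO) FPKM. Of these, 5 lay above the median and 3 below: Tnni3, Myl7 (1001 and 773 FPKM) and Nkx2-5 (26.6 and 20.4 FPKM). Markers of cushion mesenchyme and fibroblasts summed to 496 (WT) and 601 (KO) FPKM, with 8 of 9 above the median and none at 0. Endothelial and endocardial markers summed to 229 and 233 FPKM (7 of 8 above), and epicardial markers to 76.9 and 86.8 FPKM (4 of 6 above). Leukocyte markers summed to 6.99 and 11.8 FPKM (3 of 4 above), with C1qb (1.58 and 4.41 FPKM) over 2-fold higher. Erythroid markers summed to 3281 and 3359 FPKM with 3 of 6 above, Alas2 (18.3 and 12.8 FPKM) and Hba-x (271 and 353 FPKM) lying on opposite sides. Liver and yolk sac markers summed to 0.685 (WT) and 21.3 (KO) FPKM, with Alb listed at 0 in both. The largest of them in KO was Afp (0.110 and 16.6 FPKM). Ttr (0.438 and 1.79 FPKM) and Apob (0.137 and 1.12 FPKM) were also higher in KO, and Apoa1 was listed at 0 in WT and at 1.67 FPKM in KO. The part of these differences in the values of the members was not tested.

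By level and ratio alone, each member had close neighbours among other genes. Likeness was the distance between genes in the plane of log2(FPKM + 1) in WT and KO, over 2 libraries only. Nearest to Tead2 were Hdac3, Ilkap and Ndrg4, at distances from 0.0084 to 0.033. Nearest to Ctgf were Bphl, Nagk and Mboat2 (0.0046 to 0.015), and nearest to Yap1 were Mesdc2, Wdr43 and Fitm1 (0.012 to 0.028). Nearest to Ankrd1 were Actb, Pln and Rpl14 (0.040 to 0.050). With 2 libraries many genes share any such pattern.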

How the data were processed

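The authors deposited 1 table of FPKM values, with 1 column for the WT library and 1 for the KO library, per the file header. The submitters' processing notes name TopHat2 (version 2.0.6), Bowtie2 (version 2.0.2), Cufflinks (version 2.0.2) and the build mm9. Gene annotation and program options are not given in the sources used here. Per the labels' protocols, 500 ng of total RNA and 15 PCR cycles were used, and 100 bases were read from 1 end. The WT run was stopped early and its bases were called by hand.

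From these values log2((KO + 1)/(WT + 1)) was computed for genes whose mean reached 1 FPKM, with limits at 1 and -1. Relative depth came from 2213 genes with a mean under 0.3 FPKM, of which 68.9% had a quotient of KO and WT that fell, to a tolerance of 0.1%, on 0.796 multiplied by a fraction of whole numbers no larger than 10. Members and lists were chosen with earlier results of these data known. Named were all members and, per list, at most 2 genes of highest mean and 2 furthest from the median. Amot, Amotl1, Nppb, Myh6, Myh11, Myl7, Nkx2-5, Foxf2, Ankrd2, Alb, Apob and Apoa1 were added after their values were seen. The 3 nearest genes are printed for 4 members. A planned comparison of protein sequences was not run. The computation was tested on simulated data. Python 3.11.15, numpy 2.4.6, pandas 2.3.3 and matplotlib 3.10.9 were used.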

Additional observations from a re-analysis of the deposited data

How the results depend on the processing

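No paired analysis was possible because WT and KO are single libraries, which also prevented leaving one out. The count of members 2-fold apart was 0 in each direction under all 9 alternatives and at a limit of 1.5-fold, and the count above the median of all genes was 4 or 5. Over all genes, 53 were at least 2-fold higher and 44 lower. Pseudocounts moved these counts to 98 and 98 (0.1) or to 16 and 17 (5), and a limit of 1.5-fold moved them to 175 and 408. Raising the minimum mean to 5 FPKM left 26 higher genes. Lower genes numbered 25 with median centring, 26 with upper quartile scaling, and 27 with the trimmed mean, quantile normalization or equal totals. Under these 5 scalings the share of higher genes among those 2-fold apart was 69.7% to 71.4%, against 54.6% as deposited; the cause was not tested. Depth bears most on Tead3 and Tead4, the lowest members. The relative depth was 1.26 also with genes under 0.15 FPKM, and 12.6% of promoters held the TEAD letters when only the 250 bases before the start were searched.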
